A study of Mus musculus with 4 samples.

Results

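The peaks described here lie in and around 8 mouse genes whose products act on the small GTPase Rac: Prex1, its paralog Prex2, Vav1, Vav2, Vav3, Tiam1, Dock2 and Nck2. A peak was taken when its midpoint fell inside the mm10 span of a gene or within 50 kb of either end, an interval called the window of that gene. By this rule 317 of the 182042 peaks in 4 lists were taken, 73 from DN 1, 37 from DN 2, 86 from DP 1 and 121 from DP 2. They merged into 162 of the 107621 regions of the genome. The genes were chosen by the presence and number of peaks in these same 4 lists, known from earlier results, so these values are described and not tested. Nck2 is an adaptor and not an exchange factor, so the name Rac activators fits 7 of the 8 genes in the strict sense.

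Open chromatin was mapped by ATAC-seq, where a transposase cuts accessible DNA and leaves sequencing adapters behind, in thymocytes of wild-type C57BL/6J mice 5 to 7 weeks old. DN 1 and DN 2 are samples of thymocytes negative for CD4 and CD8 (double negative, DN), gated on CD25 with CD44 negative or positive. DP 1 and DP 2 are samples of thymocytes that carry both CD4 and CD8 (double positive, DP), the stage that follows. Cells were sorted ex vivo and processed at once, and the labels do not tell if different animals gave the 2 samples of each group, so their spread may be technical. The lists held 38808, 33131, 39718 and 70385 peaks in the order DN 1, DN 2, DP 1 and DP 2, and read depth is unknown. Peaks lay within 10 kb of 6 of 6 DP marker genes in each DP list and of 4 and 3 in DN 1 and DN 2. Of 6 markers of CD25-positive DN cells 6, 4, 6 and 5 had such a peak, so the lists separate on the DP markers and not on the DN markers. Of 8 myeloid and granulocyte markers 2 to 3 had a peak in any list, and Lyz2, Csf1r, Mpo, S100a8 and S100a9 had 0 peaks in all 4. Cd14 had 3, 1, 4 and 1 peaks in DN 1, DN 2, DP 1 and DP 2, Itgam 1, 0, 2 and 2, and Elane 0, 1, 1 and 0. In the same order, 4, 3, 5 and 5 of 6 B cell markers had a peak, and 4, 3, 3 and 4 of 5 NK and innate lymphoid markers. Purity of the samples is therefore not read from these counts.

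Rac GTPases switch between an inactive GDP-bound and an active GTP-bound state and drive actin assembly at the leading edge of a moving cell and at the contact of a T cell with its partner. Exchange factors load Rac with GTP. P-Rex1 and P-Rex2, the products of Prex1 and Prex2, respond to G protein beta-gamma subunits and to the lipid made by PI3 kinase, and so couple chemokine receptors to Rac. The Vav proteins are phosphorylated below the T cell receptor, DOCK2 drives lymphocyte migration together with ELMO1, and TIAM1 takes part in cell polarity. NCK2 links phosphorylated receptors to actin regulators.

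Promoter sequences, from 250 bases before to 50 after a gene's start, were taken from RefSeq (GRCm38.p6, the same build as mm10) and were found for 7 of the 8 genes, Prex2 being the gene without an entry. The following 4 are shown because 2 of them, Prex1 and Dock2, were covered by a peak in both DP lists and in neither DN list, while the other two, Nck2 and Vav1, were covered in DN 1, DP 1 and DP 2. Each is written 5′ to 3′ on the gene's own strand. Capitals mark GGGCGG (GC box) on either strand for Prex1 and Nck2, CCGGAAG (ETS) on either strand for Dock2, and CAGGTG (E-box) on either strand for Vav1.
Prex1 promoter, chr2:166713783-166714082, minus strand: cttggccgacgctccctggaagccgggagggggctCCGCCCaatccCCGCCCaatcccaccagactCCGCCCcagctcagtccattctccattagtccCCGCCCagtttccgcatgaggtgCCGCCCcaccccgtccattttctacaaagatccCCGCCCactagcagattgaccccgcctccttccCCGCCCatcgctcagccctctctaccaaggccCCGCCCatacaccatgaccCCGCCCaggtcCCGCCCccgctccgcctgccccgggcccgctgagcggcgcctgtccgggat
Dock2 promoter, chr11:34783856-34784155, minus strand: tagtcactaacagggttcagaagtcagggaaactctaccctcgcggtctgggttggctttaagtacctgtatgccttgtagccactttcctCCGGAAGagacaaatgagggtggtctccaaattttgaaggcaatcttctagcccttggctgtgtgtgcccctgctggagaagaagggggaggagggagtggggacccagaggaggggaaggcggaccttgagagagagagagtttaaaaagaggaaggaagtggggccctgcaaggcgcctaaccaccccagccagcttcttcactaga
Nck2 promoter, chr1:43445501-43445800, plus strand: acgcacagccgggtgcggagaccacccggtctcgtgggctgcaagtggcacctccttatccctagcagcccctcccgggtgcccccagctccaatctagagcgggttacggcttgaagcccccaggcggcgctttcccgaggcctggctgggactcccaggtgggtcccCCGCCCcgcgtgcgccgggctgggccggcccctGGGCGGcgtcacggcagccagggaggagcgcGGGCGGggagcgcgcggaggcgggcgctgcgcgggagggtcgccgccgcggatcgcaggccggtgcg
Vav1 promoter, chr17:57278850-57279149, plus strand: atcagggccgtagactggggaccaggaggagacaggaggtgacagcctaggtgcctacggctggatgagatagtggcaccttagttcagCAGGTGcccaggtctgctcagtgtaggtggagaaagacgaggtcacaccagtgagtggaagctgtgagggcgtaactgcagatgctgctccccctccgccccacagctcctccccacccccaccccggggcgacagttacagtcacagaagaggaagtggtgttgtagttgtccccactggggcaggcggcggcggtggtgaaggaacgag

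The Prex1 promoter held 10 GC boxes in 300 bases, all on the strand opposite to the gene. At least as many were found in 0.0517% of the 32851 promoters in the table, and 35.7% held any. Its GC share was 69.3% with 24 CpG, against medians of 52.7% and 7 over all promoters. None of the other 8 searched motifs was found in it, among them the ETS motif and both E-boxes (the second is CAGCTG). The remaining 5 were the RUNX motif (TGTGGT), the GATA motif (AGATAA), the TCF/LEF motif (CTTTGA), the CRE motif (TGACGT) and the TATA box (TATAAA). The Nck2 promoter had 3 GC boxes, a GC share of 76.7% and 37 CpG, and 1 CAGGTG. The Dock2 promoter differed from both, with 0 GC boxes, 54.3% GC and 5 CpG, and held 1 CCGGAAG, a motif present in 8.86% of promoters. The Vav1 promoter held 1 CAGGTG, found in 20.2% of promoters, and 1 GC box. A match only says that these letters occur in the window.

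Prex1 (chr2:166566345-166713832, minus strand) had almost all of its peaks in DP cells. Its window held 1 and 0 peaks in DN 1 and DN 2 and 16 and 17 peaks in DP 1 and DP 2, a mean of 0.5 ± 0.71 (SD, n = 2) against 16.5 ± 0.71. The groups do not overlap. Per 10000 peaks of a list, which takes the unequal lengths of the lists into account, the values were 0.258 and 0 in the DN lists and 4.03 and 2.42 in the DP lists, where the median over 21883 protein-coding genes was 0.515, 0.302, 0.755 and 0.568. Of all genes, 29.6% had higher values in both DP than in both DN lists, and 2 of the 8 genes here did, Prex1 and Vav2. An exact permutation test on 2 against 2 samples has 0.333 as its smallest p, so it could not pass 0.05 for any of these values.

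**Figure D1:**
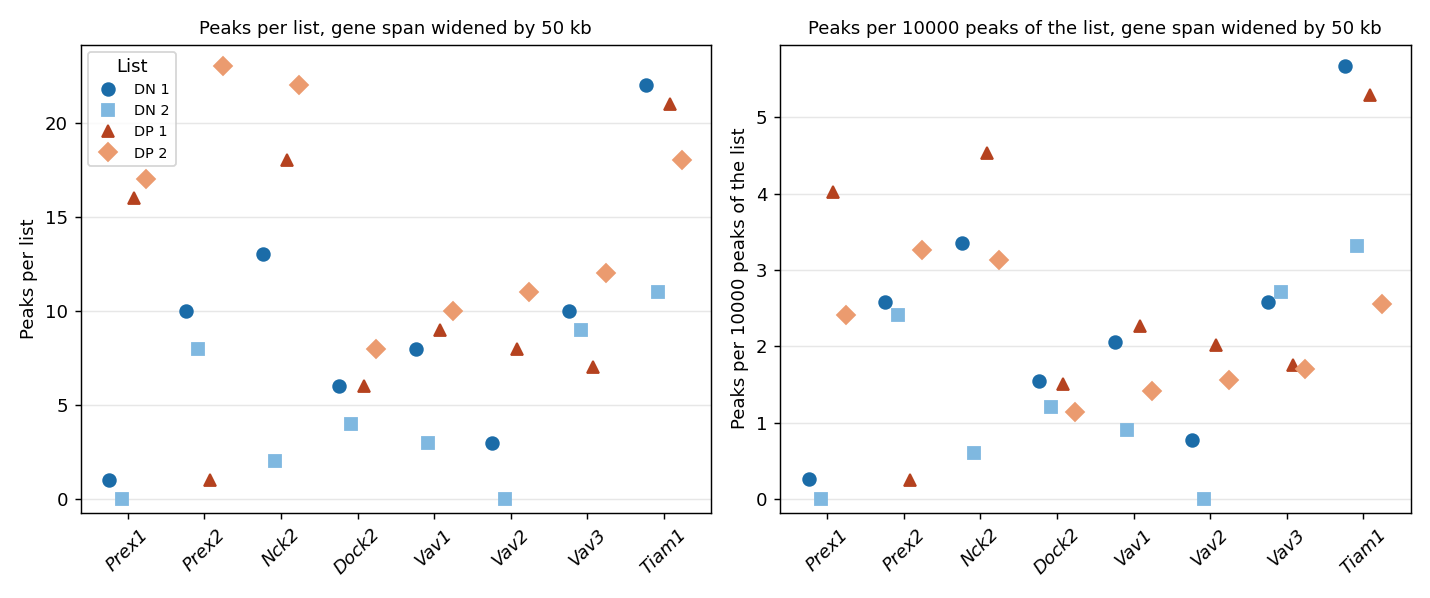
Peaks in the window of each gene, as numbers per list on the left axis and per 10000 peaks of the list on the right. Each symbol is 1 list, and no means are drawn. Prex1 has 1 and 0 peaks in the DN lists and 16 and 17 in the DP lists, while for Prex2 the DP lists lie apart, with 1 and 23 peaks.

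After merging peaks that share at least 1 bp, the Prex1 window held 19 regions. Of these 11 were held by both DP lists and by neither DN list (DP-only regions) while 0 were found in both DN lists and no DP list (DN-only regions). Of all regions of the genome 7.44% were DP-only and 2.51% DN-only. Of the remaining 8 regions, 3 were held by DP 1 alone, 4 by DP 2 alone, and 1 by DN 1, DP 1 and DP 2. Apart from Prex1 there were 4 protein-coding genes with 11 or more DP-only regions in the same kind of window: Gse1 with 15, Cd8b1 with 14, and Cd8a and Tbc1d22a with 12 each. The windows of Cd8a and Cd8b1 overlap. Prex1 was picked for this count, so its place among genes is a description.

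The DP-only regions of Prex1 ran from 32.2 kb upstream of the 5′ end to 40.0 kb past the 3′ end, 220 kb in all, with a median gap of 15.7 kb. They comprised 1 at the 5′ end, 6 inside the gene, 1 upstream and 3 downstream. The gene table gives spans without exons, so exons and introns are not told apart. A peak's rank within its list is given as a percentile by the authors' p-value, where the best peak is near 0. The best ranked of the 11 regions lay on the promoter printed above (chr2:166713451-166714350, 900 bp), at the 25.1 percentile of DP 1 and the 6.63 percentile of DP 2. No peak of DN 1 came closer to this promoter than 72419 bp, and none of DN 2 closer than 357769 bp. Next in rank were a region 32.2 kb upstream (chr2:166745701-166746300) with a mean percentile of 23.3, a region 93.2 kb inside the gene (chr2:166620251-166621000) with 24.5, and a region past the 3′ end (chr2:166549701-166550300) with 25.2. The lowest ranked, 57.0 kb into the gene (chr2:166656701-166657050), was 350 bp wide and tied at the largest p-value of both lists.

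No other protein-coding gene reached into the Prex1 window. The nearest end of another gene to the upstream region was that of Trp53rkb at 46.5 kb, and every other DP-only region of Prex1 lay farther from any other gene end. Beyond the outermost region on the 3′ side, 40.0 kb from the gene, the next region of any list was 301 kb from the gene. On the 5′ side the outermost region inside the window was 32.2 kb away and the next one outside it, held by DP 2 alone, 62.4 kb away. The only peak of a DN list was in the region chr2:166630201-166630850, 83.3 kb into the gene, at the 56.3 percentile of DN 1. Leaving out any of the 4 lists left 0 DN-only regions and 11 to 15 DP-only regions. This is little of a check. The only DN peak lies in a region that both DP lists hold, and a list left out asks less of a DP-only region. Over the genome DP-only regions then rose from 8006 to between 8974 and 44383. The DP-only regions numbered 6 in the gene span alone, 7 with a flank of 10 kb and 4 in the best ranked 50% of each list.

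**Figure D2:**
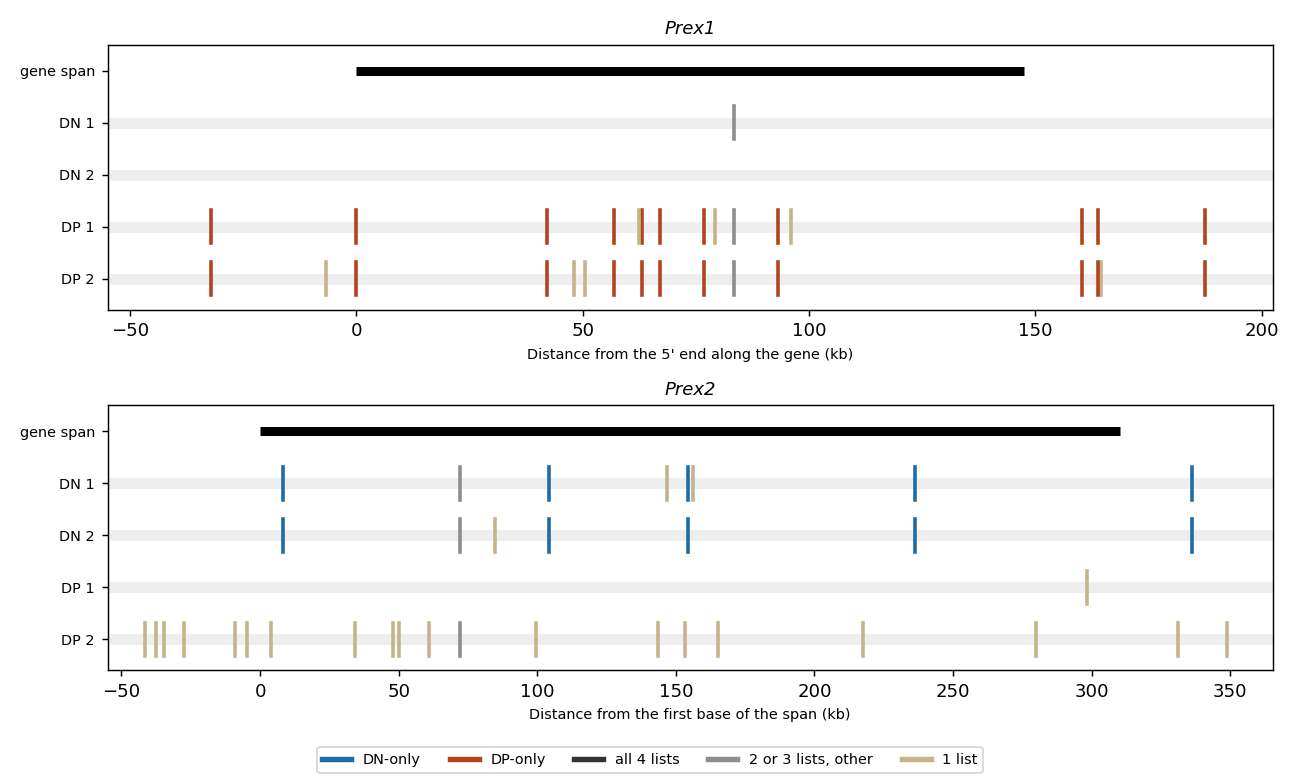
Positions of regions in the windows of Prex1 and Prex2 for each list, in kb from the 5′ end of Prex1 and from the first base of the Prex2 span. The black bar is the gene span, and a tick is a region held by that list, coloured by which lists hold it. The 11 DP-only regions of Prex1 spread over gene and flanks, and the 5 DN-only regions of Prex2 lie inside the gene or past its last base.

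Prex2 (chr1:10993273-11303683) differed from Prex1 in every list. Its window held 10 and 8 peaks in DN 1 and DN 2, and 1 and 23 in DP 1 and DP 2, so the DP samples lie on both sides of the DN samples. Per 10000 peaks these are 2.58 and 2.41 in DN and 0.252 and 3.27 in DP lists. The window held 5 DN-only and 0 DP-only regions, and of all genes 7.96% had DN-only regions outnumbering the DP-only ones. There were 11 other genes with 5 or more DN-only regions, among them Macrod2 with 10, and Nav3 and Nrxn3 with 6 each. These 3 windows run from 874 to 2098 kb, against 410 kb for Prex2. The DN-only difference rests on DP 1: without it, DN-only minus DP-only regions turned from 5 to -14, since DP 2 alone held 19 further regions there. This turn is not particular to Prex2. Without DP 1 the DP-only regions of the genome rose from 8006 to 44383, and 73.7% of all genes leaned to DP, against 43.0% with all lists.

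The DN-only regions of Prex2 were 500 to 600 bp wide and 50.3 to 100 kb apart. The best ranked lay 236 kb from the first base of the span (chr1:11229201-11229800), at the 13.1 percentile of DN 1 and the 8.77 percentile of DN 2. The others inside the gene lay 8.38, 104 and 154 kb from the first base (chr1:11001351-11001950, chr1:11097201-11097700 and chr1:11147451-11148000). The fifth (chr1:11329351-11329900) lay past the last base, 84.0 kb from the nearest other gene, A830018L16Rik. A region 72.1 kb into the gene (chr1:11065051-11065650) was held by both DN lists and by DP 2. None of the 4 lists had a peak within 1000 bp of either end of the Prex2 span, while both DP lists had 1 at the 5′ end of Prex1. Of the 23 peaks of DP 2, 16 were tied at the largest p-value of that list, and their median width was 350 bp. In the Prex1 window 7 of 17 were tied there, with a median width of 500 bp. Just outside the limit of 50 kb, 50.1 kb before the first base of Prex2, lay a region held by DN 2 alone, and the outermost region inside it, 41.3 kb away, was held by DP 2 alone.

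The 8 windows together held 30 DP-only regions, which is 18.5% of their 162 regions, 10 DN-only (6.17%), 12 held by all 4 lists (7.41%) and 87 held by 1 list (53.7%). Over the genome the corresponding shares were 7.44, 2.51, 7.39 and 71.8%. DP-only regions outnumbered DN-only regions at 5 of the 8 genes (Prex1, Nck2, Dock2, Vav1 and Vav2) and DN-only regions outnumbered DP-only at 2 (Prex2 and Vav3), where 43.0% and 7.96% of all protein-coding genes leaned to either side. Tiam1 had 2 of each. The genes were picked with these counts known and their windows had a median length of 338 kb against 117 kb over all genes, so nothing is read from the shares. Peaks of the 8 windows ranked somewhat better than their lists, with median percentiles of 43.3, 32.1, 41.0 and 33.1 in DN 1, DN 2, DP 1 and DP 2 against 56.3, 46.3, 53.1 and 53.0 over all peaks.

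**Figure D3:**
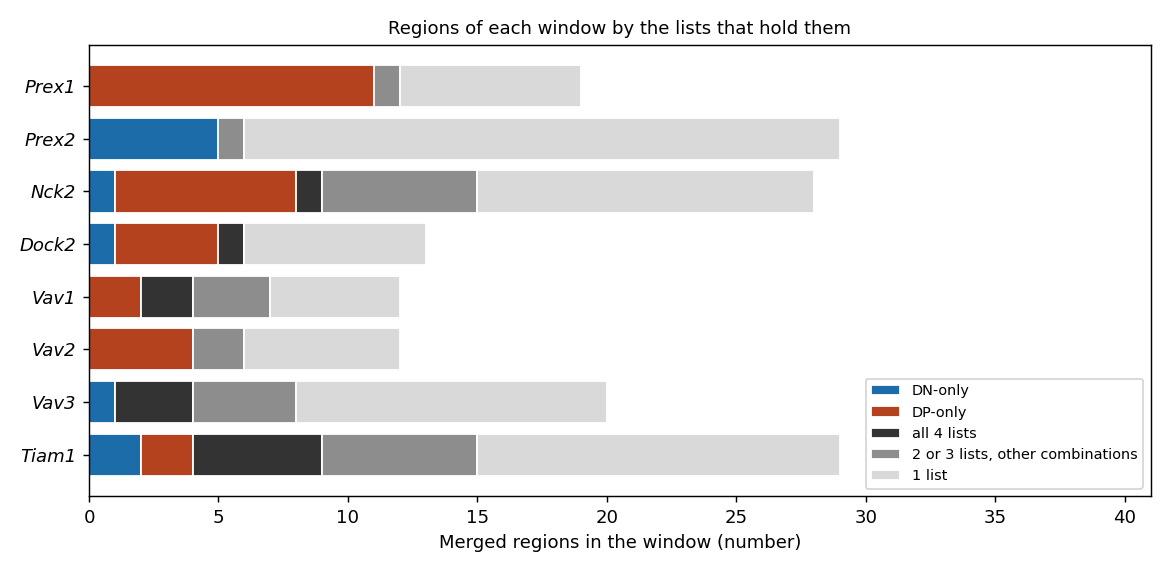
Number of merged regions in the window of each gene, split by the lists that hold them. Prex1 has 11 DP-only and 0 DN-only regions, Prex2 has 5 DN-only and 0 DP-only, and Tiam1 has the most regions held by all 4 lists, 5.

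Promoters differed among the genes in the lists that covered them. Of the 7 genes with a promoter entry, 3 (Prex1, Dock2 and Tiam1) had a peak over a promoter in both DP lists and in neither DN list, against 7.48% of the 27025 genes in the table. Another 3 (Nck2, Vav1 and Vav3) had it in DN 1 and both DP lists, against 7.81% of genes, and 0 had it in all 4 lists, against 15.7% of genes. DN 2 covered 0 of the 7, and also the fewest promoters in general: 18.4% of genes, against 26.5, 34.1 and 35.9% in DN 1, DP 1 and DP 2. The part of this general shortfall in the DP-only promoters was not tested. For Tiam1 the promoter in question is internal to the gene (chr16:89974650-89974949), and the nearest peak of DN 1 ended 150 bp from it. The merged region over this promoter (chr16:89974001-89974850) was held by DN 1, DP 1 and DP 2. By merged regions Tiam1 therefore falls with Nck2, Vav1 and Vav3, and only Prex1 and Dock2 had a DP-only region over the promoter. The 5′ end of the Tiam1 span has no promoter entry, so these counts leave it out. A region held by all 4 lists lay 1.55 kb inside that end (chr16:90143551-90144550). The Vav2 promoter entry was covered by 0 lists, but a peak of each DP list lay 159 bp from it.

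The Vav genes encode exchange factors switched on by tyrosine kinases, with Vav1 the form typical of blood cells and Vav2 and Vav3 expressed more widely. Vav1 (chr17:57279100-57329236, plus strand) had 8 and 3 peaks in DN 1 and DN 2, and 9 and 10 in DP 1 and DP 2, so DN 1 came close to the DP lists. Per 10000 peaks the values were 2.06, 0.905, 2.27 and 1.42, and the groups overlap. Its promoter lay in a region held by DN 1 and both DP lists (chr17:57278701-57279400). A DP-only region directly abutted it (chr17:57279401-57280000), and a further one lay past the 3′ end (chr17:57335601-57336100), 22.7 kb from Adgre1. Regions 2.15 and 3.77 kb upstream were also held by DN 1, DP 1 and DP 2. The 2 regions of the window that all 4 lists held lay over the promoters of other genes, Gpr108 (chr17:57247301-57248700) and Trip10 (chr17:57249201-57249700). DN-only less DP-only regions of Vav1, -2 with all lists, was -5 without DN 1, turned to 1 without DN 2, and was -1 when peaks within 250 bp were merged.

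Vav2 (chr2:27262104-27427608, minus strand) resembled Prex1 in having few peaks in DN cells, 3 and 0 in DN 1 and DN 2 against 8 and 11 in DP 1 and DP 2. Per 10000 peaks these are 0.773 and 0 against 2.01 and 1.56, and the groups do not overlap. All 4 of its DP-only regions lay in the gene's 5′ part or upstream of it: 1 at the 5′ end (chr2:27426751-27427400, mean percentile 17.7), 2 inside the gene at 49.4 and 55.6 kb (chr2:27377801-27378650 and chr2:27371851-27372250), and 1 at 5.24 kb upstream (chr2:27432551-27433150), 9.59 kb from Brd3os. DN 1 shared a region with both DP lists 130 kb into Vav2 and another over a promoter of Brd3. Without DP 1 the difference went from -4 to -8.

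Vav3 (chr3:109340465-109685694, plus strand) had 10 and 9 peaks in DN 1 and DN 2 and 7 and 12 in DP 1 and DP 2. As numbers the groups overlap; per 10000 peaks they do not, with 2.58 and 2.72 in DN and 1.76 and 1.70 in DP lists. Of all genes, 16.1% were higher in both DN than in both DP lists per 10000 peaks, and Vav3 was the 1 of the 8 genes that was. Of its 20 regions 3 were held by all 4 lists, 4 by other combinations of 2 or 3 lists, 1 was DN-only and 12 came from 1 list. All 4 lists held a region 16.5 kb upstream (chr3:109323551-109324300), another 21.7 kb into the gene (chr3:109361701-109362650) and a region 46.8 kb past the 3′ end (chr3:109732101-109732950), 47.5 kb from Ntng1. The single DN-only region lay 112 kb into the gene (chr3:109451851-109452350), at the 29.8 and 20.1 percentiles of DN 1 and DN 2. The difference of 1 DN-only region was 2 without DN 1, 4 without DN 2, -3 without DP 1 and 0 without DP 2.

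Tiam1 (chr16:89787111-90145600, minus strand), an exchange factor linked to cell polarity, had the most peaks of the 8 in each DN list and in DP 1: 22 and 11 in DN 1 and DN 2, and 21 and 18 in DP 1 and DP 2. Per 10000 peaks the values were 5.67, 3.32, 5.29 and 2.56, and the groups overlap. Of its 29 regions 5 were held by all 4 lists. The leading one, 1.55 kb inside the 5′ end (chr16:90143551-90144550), ranked at the 1.78, 2.94, 3.20 and 2.23 percentiles of DN 1, DN 2, DP 1 and DP 2. Others of this kind lay past the 3′ end (chr16:89773701-89774750, mean percentile 12.9) and 159 and 58.2 kb into the gene (chr16:89985801-89987450, 1650 bp wide, and chr16:90087101-90087700). Its DP-only regions were 7.27 and 240 kb into the gene (chr16:90138051-90138600 and chr16:89905651-89906250). Its DN-only regions were 104 kb into the gene (chr16:90040851-90041400) and 31.1 kb upstream (chr16:90176451-90177000). The difference of 0 became -3 without DN 1, without DP 1 or without DP 2, 6 without DN 2, and -4 in the best ranked 50% of each list.

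Dock2 (chr11:34226815-34783905, minus strand) encodes an exchange factor of the DOCK family, which differs from the other exchange factors here in its catalytic domain. It is the longest gene of the 8 at 557 kb, with 6 and 4 peaks in DN 1 and DN 2 and 6 and 8 in DP 1 and DP 2. The groups overlap, and per 10000 peaks the means were 1.38 ± 0.24 in DN and 1.32 ± 0.26 in DP lists (n = 2). All 4 DP-only regions lay within 13.2 kb of each other at the 5′ end and the first part of the gene (chr11:34770451-34771150, chr11:34775551-34776100, chr11:34782851-34783500 and chr11:34783551-34784400), the last of them over the promoter printed above. The DN-only region (chr11:34769301-34769900) lay 14.3 kb into the gene, next to the DP-only region at 13.1 kb. No DN list had a peak within 13956 bp of the promoter. The 1 region held by all 4 lists (chr11:34833151-34834250) covered a promoter of Spdl1, 49.8 kb upstream of Dock2. The difference of -3 was -1 without DN 1 or DN 2, -5 without DP 1, and -2 when peaks within 250 bp were merged.

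Nck2 (chr1:43445483-43570518, plus strand), the adaptor among the 8 genes, had 13 and 2 peaks in DN 1 and DN 2 and 18 and 22 in DP 1 and DP 2. Per 10000 peaks the values were 3.35, 0.604, 4.53 and 3.13, and the groups overlap. It held 7 DP-only regions and 1 DN-only region. With Nck2 itself and Prex1 counted, 101 genes (0.462% of all) had 7 DP-only regions or more. Of the 7, 5 followed each other from 6.02 to 22.6 kb behind the 5′ end, among them chr1:43464801-43465400 (mean percentile 18.9), chr1:43467601-43468500 (25.5) and chr1:43451251-43451750 (37.5). The other two lay past the 3′ end, including chr1:43606001-43606550. The DN-only region (chr1:43474151-43474650) lay 28.9 kb from the 5′ end, at the 56.3 and 77.9 percentiles of DN 1 and DN 2. A region 54.9 kb into the gene was held by all 4 lists (chr1:43499951-43500900) and ranked at the 6.40, 6.96, 16.8 and 15.7 percentiles of DN 1, DN 2, DP 1 and DP 2. The promoter and 3 further regions were held by DN 1 and both DP lists. The nearest end of another protein-coding gene, Ecrg4, lay 124 kb from the last of the named regions. The difference of -6 was -10 without DN 1, -3 without DN 2 and -11 without DP 1 or DP 2.

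**Figure D4:**
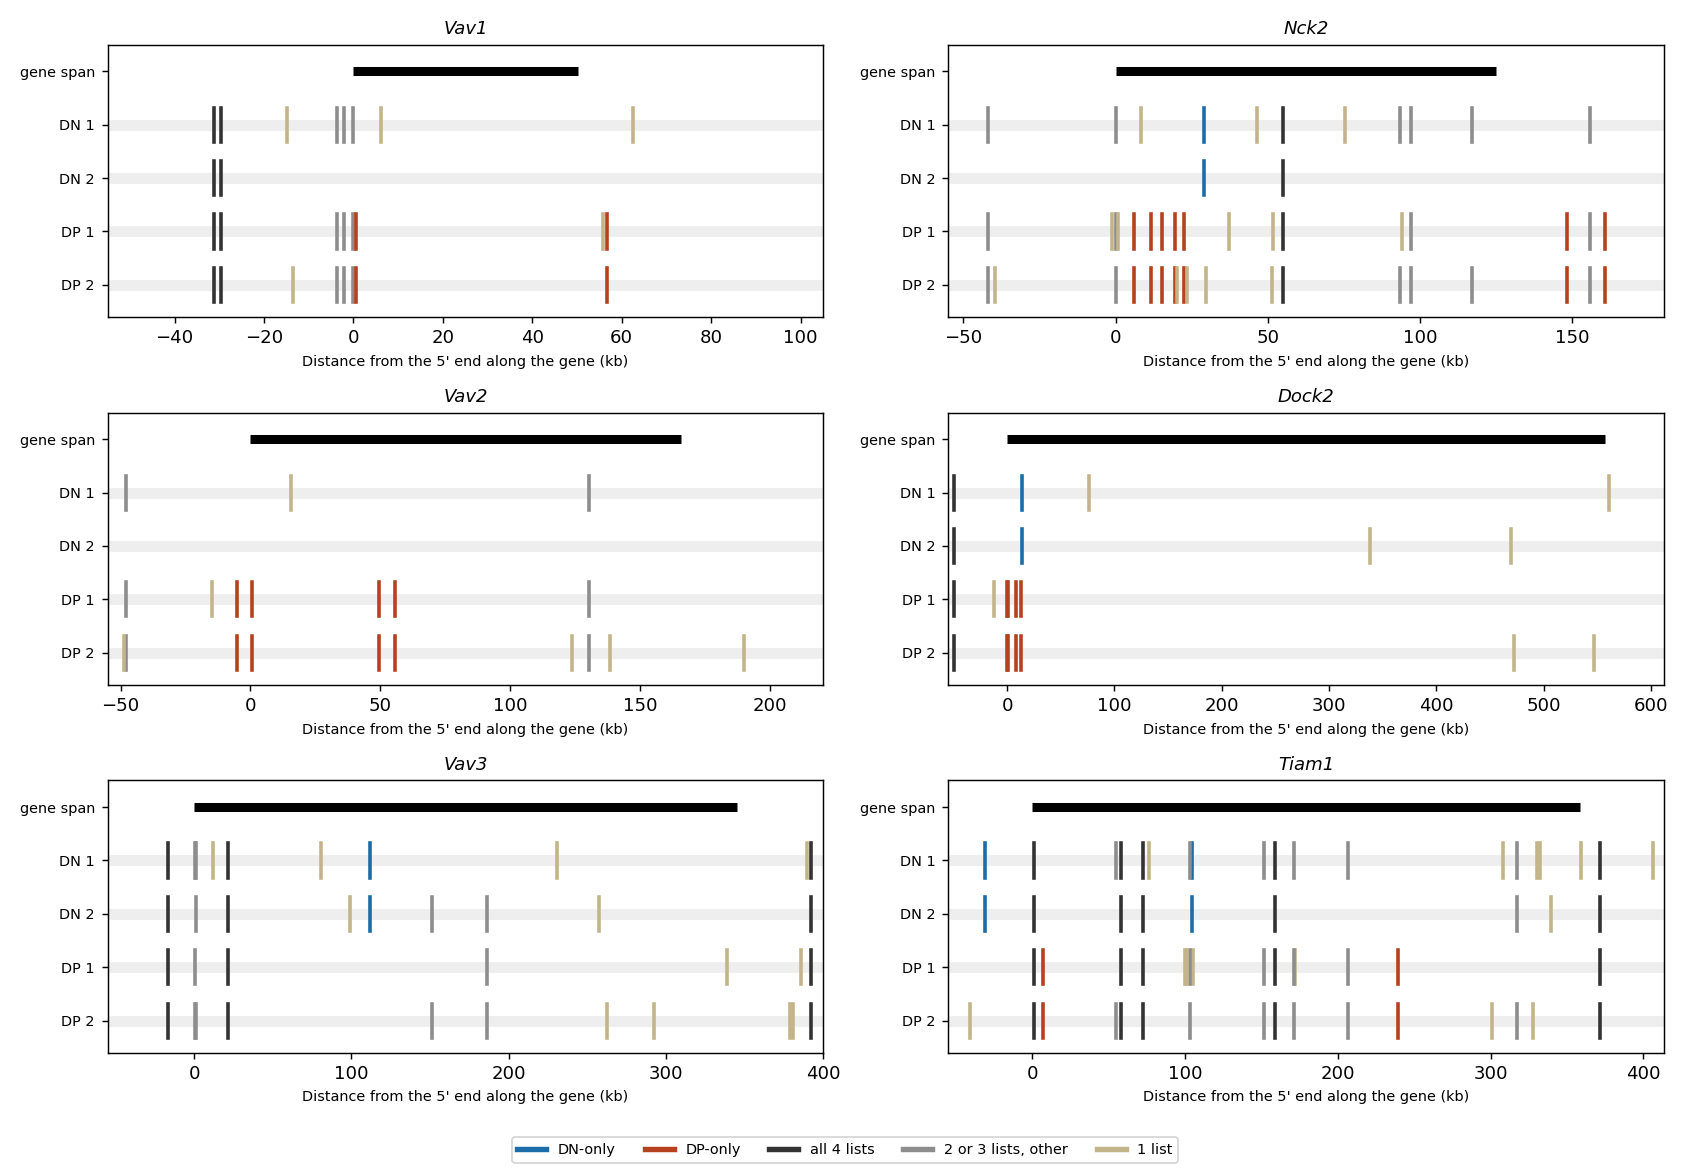
Regions in the windows of the 3 Vav genes, Nck2, Dock2 and Tiam1 for each list, in kb from the 5′ end along the gene. The black bar is the gene span, and ticks are coloured by the lists that hold the region. The 4 DP-only regions of Dock2 stand close together at its 5′ end, and Tiam1 carries 5 regions held by all 4 lists.

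Other genes of the Rac pathway, taken from 6 lists with 84 distinct genes, were counted in windows of the same kind. Of the 84, 56 (66.7%) leaned to DP, with DP-only regions in the majority over DN-only ones, and 7 (8.33%) leaned to DN, against 43.0% and 7.96% of all genes. The median window of the 84 was 166 kb, against 117 kb over all genes, and the part of window length in these shares was not tested. Among 7 Rac GTPases and relatives, 5 leaned to DP and 0 to DN, led by Rhoa and the haematopoietic Rhoh with 4 DP-only regions each. Among 23 further exchange factors and their partners, 15 leaned to DP and 3 to DN. Def6, a Rac activator of T cells, had 1 and 0 peaks in DN 1 and DN 2 and 12 and 8 in DP 1 and DP 2, and 5 of its regions were DP-only and 0 DN-only. Elmo1, the partner of DOCK2, had 4 DP-only regions and 6, 3, 11 and 16 peaks in DN 1, DN 2, DP 1 and DP 2. Toward DN leaned Dock5, with 2 DN-only regions, and Dock4 and Farp1, each with a difference of 1.

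Of 14 Rac inhibitors, 7 (50%) leaned to DP and 2 to DN, against 43.0% and 7.96% of all genes. The share leaning to DP was also 50% for the effectors below. No list was tested against all genes, and the lists were chosen with earlier results of these data known. Nothing is therefore read from the share of any list, high or low. Other genes in these windows were not listed, so a region need not belong to the gene named. Arhgap25 and Srgap2, which stimulate GTP hydrolysis by Rac, had 5 DP-only regions each, and Arhgap25 had 0 peaks in both DN lists and 7 and 8 in the DP lists. Arhgap15 and Arhgap31 leaned to DN with a difference of 1 each. Of 18 effectors and WAVE complex genes, 9 leaned to DP, with 8 DP-only regions at Wasf2, 7 at Iqgap1 and 6 at Cyba, and 2 (Pak3 and Cyfip1) leaned to DN. Of 10 genes that work with NCK adaptors, 9 leaned to DP, led by Pak2 and Dock1 with 5 DP-only regions each, beside 1 DN-only region at Dock1, and then by Cd3e with 4. Both Pak2 and Dock1 also stand in another of the lists. Of 14 genes upstream of P-Rex proteins, 13 leaned to DP and 0 to DN, where 43.0% and 7.96% of all genes did. Gnai2, a G protein alpha subunit of chemokine receptors, had 6 DP-only regions and 4, 1, 15 and 13 peaks in DN 1, DN 2, DP 1 and DP 2.

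By peaks per 10000 in the 4 lists, the genes most like Prex1 outside its window were Spcs2 and Xrra1, with a Euclidean distance of 0.258, and Ncald, with 0.459. Spcs2 and Xrra1 overlap and share the same peaks, 2, 0, 16 and 17 in DN 1, DN 2, DP 1 and DP 2, with 10 DP-only regions. Ncald had 2, 0, 17 and 15 peaks and 7 DP-only regions. The measure rests on 4 values per gene.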

How the data were processed

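Reads were aligned to mm10, per the submitters' processing notes, which name Bowtie2 and Picard without versions or roles. Each sample has its own deposited list of peaks with a p-value per peak, which is the authors' own and was used only to rank peaks within a list, with ties sharing their mean rank. The caller is known from the list names as PeakDEck, and for its settings, the read filters and any shift of insertions the answer is "not given in the sources used here". The smallest p-value was 1e-12 in each list, and 29.1 to 44.2% of a list's peaks were tied at its largest. The smallest width was 300 bp. Without read counts a missing peak cannot be told from a site with too few reads, and no intervals were computed. Between lists, 1.33 to 6.25% of peaks of the shorter one recurred with the same coordinates, so none is a copy.

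Peaks of chromosomes 1 to 19, X and Y that share at least 1 bp were merged. Gene spans and promoters came from RefSeq (GRCm38.p6), and strands from the promoter table. A region is at a gene end within 1000 bp of it. The members and lists were chosen with earlier results of these data known. Named by rule were the 8 genes, all their DN-only, DP-only and shared regions (where over 8, the 4 best ranked of each class), the 3 genes most like Prex1 and up to 3 genes a direction in each pathway list, of which the text names part. Of 15 listed inhibitors 14 distinct genes were matched. The marker lists also gave B cell markers with a peak for 4, 3, 5 and 5 of 6 genes in DN 1, DN 2, DP 1 and DP 2, NK and innate lymphoid markers for 4, 3, 3 and 4 of 5, erythroid markers for 3 of 5 in each list, and stromal markers for 3, 2, 5 and 3 of 6. Alternatives were other flanks, any overlap, the best ranked 50%, lists of equal length, 50% coverage, merging within 250 bp and each list left out. On simulated lists all 200 planted DN-only and 200 planted DP-only regions were recovered among 53811 regions. The planted regions never touched and their peaks spanned almost all of each, so this checks the code alone. Python 3.11.15, numpy 2.4.6, pandas 2.3.3 and matplotlib 3.10.9 were used. A planned comparison of proteins was not run, as protein sequences were not used here.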

Additional observations from a re-analysis of the deposited data

How the results depend on the processing

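DN-only regions in the 8 windows numbered 10, 5 in the best ranked 50% of each list, and 10 to 31 with 1 list left out; DP-only regions numbered 30, and 31 to 72 with 1 list left out. Prex1 had 11 DP-only regions, 6 with the gene span alone, 7 with a flank of 10 kb, 4 in the best ranked 50%, and 11 to 15 with 1 list left out. It had 0 DN-only regions under all 12 alternatives, which says little as its window held only 1 DN peak. DN-only minus DP-only regions of Prex2 were 4 to 6 under the other 8 alternatives and -14 to 7 with 1 list left out, -14 being without DP 1. The sign also turned for others: Vav1, at -2 with all lists, ranged from -5 to 1 with 1 list left out (1 without DN 2), and Vav3, at 1, from -3 to 4 (-3 without DP 1). A list left out lets the remaining one stand for its group, so genome totals move too: DN-only regions from 2703 to 18233 without DN 1 and 17338 without DN 2, DP-only from 8006 to 44383 without DP 1 and 19337 without DP 2. Over 132 comparisons of 11 counts with their alternatives, 95 stayed within 1.5 times, 34 moved and 3 changed sign. Of the 95, 12 are the DN-only count of Prex1, which stayed at 0. The difference at Tiam1, 0 with all lists, ranged from -4 to 6 but counts as moved, since 0 has no sign to change. No paired analysis was possible because the results come from no test. Depth is unknown, which limits every statement on a missing peak.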

Other observations

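Dock1, a relative of Dock2 that acts in the uptake of dying cells, held 10 and 12 peaks in DN 1 and DN 2 and 32 and 125 in DP 1 and DP 2 within its window of 603 kb. No other of the 21883 genes had more peaks of DP 2 in such a window, yet Dock1 had 5 DP-only and 1 DN-only regions. Its value was seen before it was singled out.

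Cdh5, a cadherin of endothelial cells among the stromal markers, had 6 and 5 peaks within 10 kb in DN 1 and DN 2 and 1 and 2 in DP 1 and DP 2, so the groups do not overlap. Cdh5 was chosen after its values were seen, and the other stromal markers did not follow it. Pecam1 had 2, 0, 3 and 5 peaks in DN 1, DN 2, DP 1 and DP 2, and Pdgfra 1, 1, 1 and 2. Col1a1 and Foxn1 had 1 peak in DP 1 alone, and Epcam had 0 in all lists. Of all genes, 16.1% were higher in both DN than in both DP lists, counted per 10000 peaks in windows of 50 kb. No cell type is read from Cdh5.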
